A study of Mus musculus with 6 samples.

Results

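The 9 genes described are markers of megakaryocytes and platelets: the chemokine genes Pf4 and Ppbp, the integrin genes Itga2b and Itgb3, the receptor genes Gp1ba, Gp1bb, Gp5 and Gp9, and Vwf. Each was taken from the probe set annotated to its symbol and no other gene, and 7 of the 9 had such a probe set, among 22180 genes measured in all. No probe set carried the symbol Gp1ba, and the probe set of Gp1bb was also annotated to its neighbour Septin5, so Gp1ba has no value here and Gp1bb none of its own. RNA came from whole spleens of mice aged 1 year, 3 of them overexpressing AIMP2-DX2, a shortened splice form of the scaffold protein AIMP2, and 3 control littermates, with 1 Affymetrix array per spleen. The DX2 mice had the genotype CAG-rtTA; TRE DX2/+, in which the doxycycline-dependent activator rtTA is driven by the broadly active CAG promoter, and the control mice had the genotype 0; TRE DX2/+, the same responsive transgene without the activator. Mice of both groups were fed doxycycline pellets (6.25 mg per kg) from an age of 8 weeks. Only the DX2 mice carried rtTA, so DX2 and rtTA cannot be told apart as sources of a difference. The comparison addresses whether transcripts of this lineage differed between the spleens of the 2 groups, and each spleen is given separately. The labels call the 3 spleens of a group biological replicates.

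Megakaryocytes are the large polyploid cells that shed platelets into the blood, and in mice the red pulp of the spleen holds them throughout life, beside the marrow. Platelets circulate with RNA left over from the megakaryocyte, and the spleen stores a share of them, so a spleen extract holds RNA of both. On the platelet surface the receptor of Gp1ba, Gp1bb, Gp5 and Gp9 catches von Willebrand factor on a damaged vessel wall, the integrin of Itga2b and Itgb3 then binds fibrinogen, and the granules release chemokines such as those of Pf4 and Ppbp.

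The promoters of this lineage are known as targets of transcription factors of the GATA family, the ETS family and the RUNX family. They are shown as background, and their part in the pattern of the measured genes was not tested. RefSeq promoter sequences (GRCm38.p6) were at hand for 7 of the 9 genes, 5 of them measured. The 250 bases before the start site were searched on both strands for GATAA, a core of GATA factors, GGAAG, a core of ETS factors, and TGTGGT, a core of RUNX factors. Other forms of these cores were not searched. These are the sequences of Ppbp (chr5:90768268-90768517, plus strand), Pf4 (chr5:90772185-90772434, plus strand), Itga2b (chr11:102469884-102470133, minus strand), Gp5 (chr16:30310782-30311031, minus strand) and Gp9 (chr6:87777820-87778069, plus strand), 5′ to 3′, with the matches on either strand in capitals.
Ppbp: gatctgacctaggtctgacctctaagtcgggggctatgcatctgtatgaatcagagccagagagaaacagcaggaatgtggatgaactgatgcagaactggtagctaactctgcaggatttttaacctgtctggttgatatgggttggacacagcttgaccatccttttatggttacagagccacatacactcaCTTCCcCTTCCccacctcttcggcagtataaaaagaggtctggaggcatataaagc
Pf4: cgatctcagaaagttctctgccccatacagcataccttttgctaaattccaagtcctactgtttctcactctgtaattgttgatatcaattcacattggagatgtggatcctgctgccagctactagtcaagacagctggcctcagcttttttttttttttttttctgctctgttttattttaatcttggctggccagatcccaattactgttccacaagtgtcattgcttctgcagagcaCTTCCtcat
Itga2b: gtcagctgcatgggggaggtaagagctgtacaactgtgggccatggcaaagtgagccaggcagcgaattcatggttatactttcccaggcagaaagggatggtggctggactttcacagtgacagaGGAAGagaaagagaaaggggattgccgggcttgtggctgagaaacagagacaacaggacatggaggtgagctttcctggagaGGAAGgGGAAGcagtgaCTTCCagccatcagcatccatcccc
Gp5: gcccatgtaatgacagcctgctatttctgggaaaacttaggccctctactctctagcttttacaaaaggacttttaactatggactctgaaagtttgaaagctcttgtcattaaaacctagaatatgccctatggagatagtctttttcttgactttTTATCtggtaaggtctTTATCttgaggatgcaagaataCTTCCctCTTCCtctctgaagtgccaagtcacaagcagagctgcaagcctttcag
Gp9: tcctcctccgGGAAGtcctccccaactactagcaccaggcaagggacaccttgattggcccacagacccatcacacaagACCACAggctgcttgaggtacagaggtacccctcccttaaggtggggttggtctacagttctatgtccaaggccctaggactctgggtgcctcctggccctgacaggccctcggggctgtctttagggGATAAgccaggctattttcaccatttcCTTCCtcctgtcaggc
GGAAG or its complement lay in 7 of the 7 promoters, those of Gp1ba and Gp1bb included, and in 64.1% of all 32851 promoters of the same length. GATAA lay in 3 of the 7 (Gp1ba, Gp5 and Gp9) against 22.6% of all, and TGTGGT in 1 (Gp9) against 14.0%. In Gp9 the GATAA match begins 43 bases before the start site, and in Gp5 the 2 matches begin 77 and 93 bases before it. In Pf4 the nearest GGAAG match begins 9 bases before the start site, in Gp9 16 bases, in Itga2b 25 bases, in Gp5 48 bases and in Ppbp 50 bases. A match describes letters and is not a measured binding site.

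All values are log2 expression values as deposited, so a difference of 1 is a doubling. Array medians over all genes were 5.42 to 5.46, and with 3 arrays per group their number limits the precision. The labelled tissue was checked against spleen markers: Cd79a of B cells read 9.45 or more, Spic of red pulp macrophages 8.76 or more and Cd3e of T cells 6.91 or more on every array. By Xist and the Y-linked Eif2s3y, controls 1 and 2 were female and the 4 other spleens male, so each member's difference is also given with a term for sex.

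The transcripts of the platelet chemokines were abundant in spleen DX2 1 and at or below control levels in the other DX2 spleens. Ppbp encodes the precursor of a chemokine that attracts neutrophils, and it read 9.97, 10.80 and 10.91 in controls 1, 2 and 3 and 12.16, 9.75 and 10.63 in DX2 1, 2 and 3. DX2 1 thus held the highest of the 6 values and DX2 2 the lowest. Pf4, whose product platelet factor 4 binds heparin, read 6.66, 7.63 and 7.59 in the controls and 9.25, 6.49 and 7.22 in the DX2 spleens, in the same order of highest and lowest. DX2 1 stood 3.03-fold above the control mean for Ppbp and 3.87-fold for Pf4, and DX2 2 below it, at 0.572 and 0.574 of that mean. Whole spleen was extracted, so more cells or platelets and more RNA per cell cannot be told apart for any gene here.

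The fibrinogen receptor genes gave the same picture. Itga2b encodes the alpha chain of this receptor. It read 6.26, 6.72 and 6.62 in controls 1, 2 and 3 and 8.11, 6.34 and 6.47 in DX2 1, 2 and 3. Its partner chain Itgb3, which also pairs with another alpha chain on other cells, read 7.72, 8.27 and 8.10 in the controls and 9.86, 7.71 and 8.10 in the DX2 spleens. DX2 1 was above every other spleen for both chains, by 1.39 for Itga2b and 1.59 for Itgb3. DX2 3 lay within the control range for both, and DX2 2 within it for Itga2b and just under it for Itgb3.

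Of the receptor for von Willebrand factor, Gp5 and Gp9 were measured. Gp5, a leucine-rich glycoprotein of the complex that thrombin cleaves, read 5.87, 6.29 and 6.11 in controls 1, 2 and 3 and 8.02, 5.75 and 6.31 in DX2 1, 2 and 3. Gp9, a small chain needed for the complex to reach the surface, read 7.56, 8.37 and 8.51 in the controls and 10.06, 8.24 and 8.69 in the DX2 spleens. DX2 1 was the highest for both, and DX2 3 came next, above the highest control by 0.016 for Gp5 and 0.18 for Gp9. The probe set shared by Gp1bb and Septin5 read 5.52, 5.50 and 5.55 in the controls and 6.56, 6.03 and 5.69 in the DX2 spleens, so that here all 3 DX2 spleens lay above all 3 controls. The difference there was 0.57 (SE 0.21) and missed the threshold (limma, adjusted p = 0.241), and its signal cannot be assigned to Gp1bb.

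Vwf, the adhesive protein stored by platelets and by endothelial cells, followed the other genes although it has a second source. It read 6.04, 6.51 and 6.23 in controls 1, 2 and 3 and 7.95, 5.85 and 6.46 in DX2 1, 2 and 3, with DX2 1 above every other spleen by 1.44. The mean of 15 endothelial transcripts was 6.82, 6.75 and 7.11 in the controls and 7.34, 6.83 and 7.59 in the DX2 spleens, so it was highest in DX2 3, where Vwf lay within the control range. The part of endothelium in the Vwf values was not tested.

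**Figure D1:**
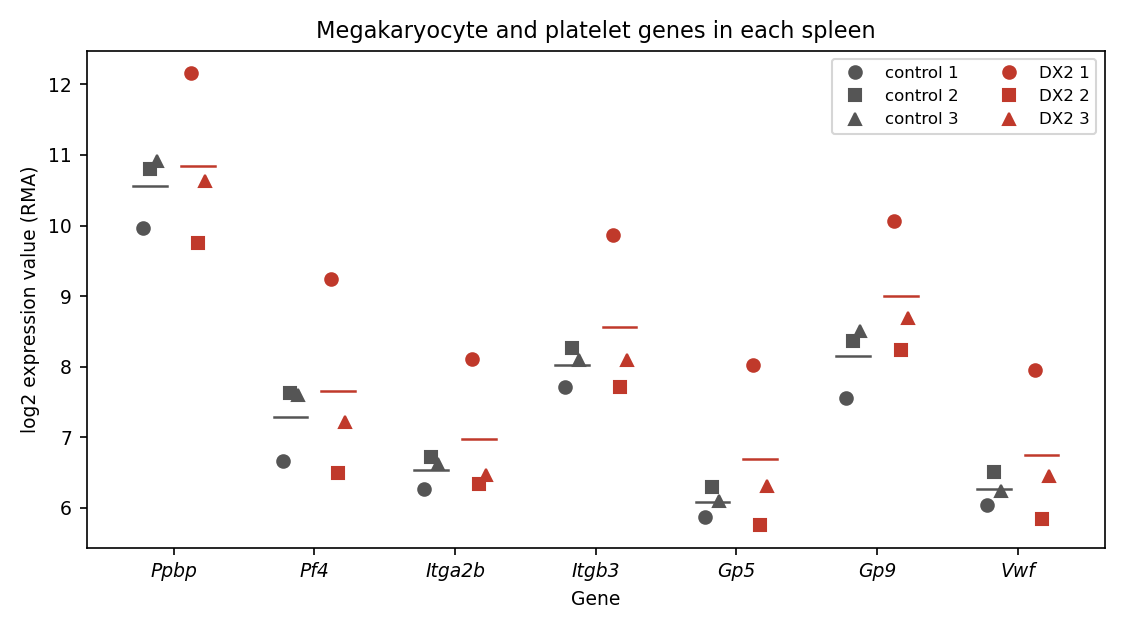
Log2 expression value (y axis) of the 7 measured genes (x axis) in each of the 6 spleens, with controls in grey, DX2 in red, a symbol for each replicate and a bar at each group mean. DX2 1 is the highest spleen for all 7 genes, while DX2 2 and DX2 3 lie among or near the controls.

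Across the 7 genes DX2 1 was the highest of the 6 spleens every time, against 17.5% of all genes. Its lead over the next highest spleen ran from 1.25 (Ppbp, 2.37-fold) to 1.71 (Gp5, 3.28-fold), so all 7 stood at least 1 above every other spleen, as did 0.437% of all genes. DX2 3 lay within the control range for 5 genes and above it for Gp5 and Gp9. DX2 2 lay below every control, and was the lowest spleen of all, for 5 genes (against 16.6% of all genes), and within the range for Itga2b and Gp9. Among the controls, control 1 was the lowest for all 7, and the next highest spleen after DX2 1 was control 2 for 4 genes, DX2 3 for 2 and control 3 for 1.

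As a difference between groups, all 7 genes were higher in the DX2 mean, as were 51.6% of all genes, and none passed the test. The differences ran from 0.29 for Ppbp (SE 0.57, 95% interval -1.03 to 1.61) to 0.85 for Gp9 (SE 0.47, 95% interval -0.24 to 1.94), with a median of 0.49 against 0.01 over all genes. By limma, 0 of the 7 passed an adjusted p of 0.05, with adjusted p between 0.430 and 0.849, where 0.316% of all genes passed, 8 of them higher (0.0361%) and 62 lower (0.280%, or 1 higher and 1 lower with arrays centred on their medians). At an unadjusted p under 0.05 there were again 0 of 7, against 16.0% of all genes. The groups overlapped for all 7, while they did not for 10.7% of genes in the higher direction. The lower bounds of the 7 intervals ran from -1.16 (Pf4) to -0.24 (Gp9) and the upper bounds from 1.46 (Itga2b) to 1.94 (Gp9). The test therefore leaves differences of either sign possible.

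The spread within the DX2 group set these errors. The SD over 3 spleens was between 0.95 (Gp9) and 1.43 (Pf4) in DX2 and between 0.21 (Gp5) and 0.55 (Pf4) in control, where the medians over all genes were 0.17 and 0.14. Without DX2 1 the differences were -0.44 for Pf4, -0.37 for Ppbp, -0.13 for Itga2b, -0.12 for Itgb3, -0.056 for Gp5 and -0.11 for Vwf. Among the 7 only Gp9 stayed above 0, at 0.31 (SE 0.30), where 52.7% of all genes were above 0, and the median of the 7 was -0.12. None of these 5-spleen differences passed either (limma, adjusted p between 0.581 and 0.926), and 0.0361% of all genes did. Without DX2 2, whose values were low, the median was 0.94.

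**Figure D2:**
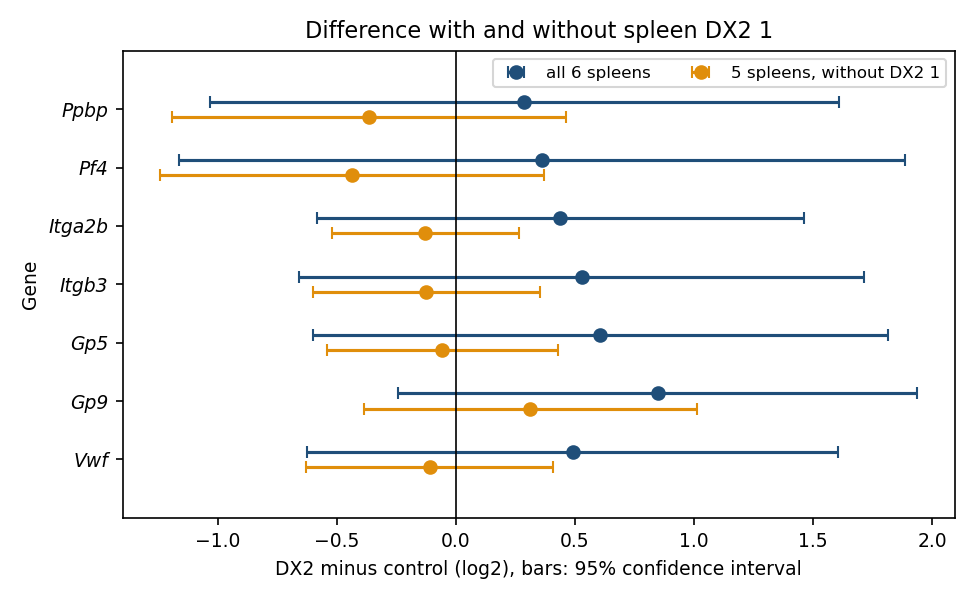
DX2 minus control on the log2 scale (x axis) for each gene (y axis), with 95% confidence intervals from limma, in all 6 spleens (blue) and without DX2 1 (orange). Every interval includes 0, and 6 of the 7 differences change sign without DX2 1.

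With a term for sex, which leaves control 3 as the reference for the 3 male DX2 spleens, the differences were 0.062 for Pf4, -0.064 for Ppbp, 0.35 for Itga2b, 0.46 for Itgb3, 0.59 for Gp5, 0.48 for Gp9 and 0.52 for Vwf. The direction of Ppbp therefore turned, and none passed (limma, adjusted p between 0.880 and 0.993, where 0.00902% of all genes passed).

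The genes also differed among themselves. When each gene was centred on its own mean, the root mean square distance of its 6 values from the mean profile of the 7 was smallest for Itgb3 (0.07) and largest for Gp9 (0.23) and Pf4 (0.22), where the median over all genes was 0.76. The mean profile includes each gene itself, so this is a description. Gp9 lay below the mean profile in control 1 (-0.35) and above it in DX2 2 (0.32) and DX2 3 (0.23). Pf4 lay farthest from it in DX2 2 (-0.33), and Ppbp in DX2 2 (-0.30) and control 3 (0.30). The 2 chemokine genes, Pf4 and Ppbp, lie side by side on chromosome 5.

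The other CXC chemokine genes of that cluster, Cxcl5, Cxcl15, Cxcl1, Cxcl2 and Cxcl3, attract neutrophils or are made by epithelia, and their differences ran from -0.064 (Cxcl5) to 0.16 (Cxcl1). None passed, and 0 of 5 had an unadjusted p under 0.05 (limma). Cxcl5 read 4.67 in DX2 1 against 4.33, 4.26 and 4.07 in the controls, and DX2 1 was the highest spleen for 3 of the 5 and at least 1 above the others for 0. Their mean levels were low, between percentiles 5.70 and 36.4 of all genes.

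Other genes of the lineage were grouped by role, 77 in all, of which 72 had a probe set of their own. None passed over all genes, and 14 had an unadjusted p under 0.05 (limma), a share near the 16.0% of all genes. The groups did not overlap for 12 in the higher and 4 in the lower direction, against 10.7% and 11.2% of all genes. These shares of all genes also apply to the counts given below for each list. DX2 1 was the highest spleen for 45 of the 72, against 17.5% of all genes, and at least 1 above every other spleen for 16, against 0.437%. The median difference of the 72 was 0.27, and 0.02 without DX2 1. With the sex term it was 0.12. By list, the sex-term medians were 0.21 for platelet receptors, 0.011 for granule and secreted proteins and 0.28 for cytoskeleton and assembly. For platelet signalling and transcription factors they were 0.083 and 0.43.

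All 17 platelet receptors measured were higher in the DX2 mean (median 0.39), 0 passed (2 at an unadjusted p under 0.05), and DX2 1 was the highest for 16. Without DX2 1, 7 of the 17 were higher and the median was -0.15. P2ry1, a receptor for ADP, read 5.16, 5.41 and 5.34 in controls 1, 2 and 3 and 7.15, 5.03 and 6.09 in DX2 1, 2 and 3, a difference of 0.79 (SE 0.46). The ATP-gated channel P2rx1 differed by 0.61, the podoplanin receptor Clec1b by 0.60 and Treml1, a receptor of platelet granules, by 0.56, with DX2 1 above every other spleen by 1.12, 1.49 and 1.61. Without DX2 1, P2ry1 differed by 0.26, P2rx1 by 0.23, Clec1b by 0.022 and Treml1 by -0.15. For P2rx1 all 3 DX2 spleens lay above all 3 controls, as for 10.7% of all genes. P2ry12, the other ADP receptor, which macrophage-lineage cells also express, was the exception, with its highest value in DX2 2 (7.93) and 7.33 in DX2 1.

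Among other granule and secreted proteins, DX2 1 was the highest spleen for 7 of 12 and at least 1 above the rest for 4. Of the 12, 9 were higher and 3 lower (median 0.34), 0 passed and 1 had an unadjusted p under 0.05. Without DX2 1, 6 of the 12 were higher and the median was 0.035. Thbs1, the adhesive protein thrombospondin, differed by 0.96 (SE 0.53), at 9.48, 7.29 and 8.24 in the DX2 spleens against 6.79, 7.90 and 7.44 in the controls. The coagulation factors F5 and F13a1 and the factor V carrier Mmrn1 differed by 0.53, 0.52 and 0.52, and DX2 1 stood 1.41, 1.04 and 1.69 above every other spleen. Without DX2 1, F5, F13a1 and Mmrn1 differed by -0.17, -0.017 and -0.24, and Thbs1 by 0.39. The growth factor gene Pdgfb differed by 0.62 (SE 0.17, adjusted p = 0.150) with its highest value in DX2 2 (6.90) and all 3 DX2 spleens above the controls. Clu, another granule protein with many sources, was lowest in DX2 1 (9.01, against 9.62 to 10.23 in the controls).

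Of 15 genes of the cytoskeleton and of platelet assembly, 13 were higher and 2 lower (median 0.23), with 0 past the test and 2 at an unadjusted p under 0.05. Without DX2 1, 10 of the 15 were higher and the median was 0.09. Tubb1, the tubulin of the platelet's marginal band, differed by 1.06 (SE 0.44, adjusted p = 0.296), at 8.78, 6.99 and 7.35 in DX2 1, 2 and 3 and 6.25, 6.82 and 6.89 in controls 1, 2 and 3, so that the groups did not overlap. Rab27b, a GTPase of dense granules, read 7.27 in DX2 1 and at most 5.52 elsewhere. Stom, a membrane protein that red cells also make, differed by 0.86 and was high in DX2 1 (9.81) and DX2 3 (9.52), against at most 8.57 in the controls. Cavin2 differed by 0.49 and the actin crosslinker Actn1 by 0.40, the latter with DX2 3 the highest (9.21). Without DX2 1, Tubb1 differed by 0.52, Stom by 0.54, Cavin2 by 0.25, Actn1 by 0.40 and Rab27b by -0.046.

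Platelet signalling genes differed in both directions. Of 16 measured, 9 were higher and 7 lower (median 0.07), 0 passed and 4 had an unadjusted p under 0.05. Without DX2 1, 6 of the 16 were higher and the median was -0.08. Alox12, the platelet lipoxygenase, read 7.01, 7.57 and 7.61 in controls 1, 2 and 3 and 9.22, 7.09 and 7.54 in DX2 1, 2 and 3, and the phosphodiesterase Pde5a 5.83, 6.89 and 6.68 against 8.38, 5.90 and 6.59. Tbxas1, the thromboxane synthase that macrophages share, differed by 0.54. The kinase Syk, also of B cells, differed by -0.57 (SE 0.12, adjusted p = 0.104) with all 3 DX2 spleens below the controls, and Rasgrp2, an activator of the GTPase RAP1 that T cells also use, by -0.55. Of 10 B cell transcripts, 5 passed, all lower, against 0.280% of all genes in that direction. With the replicate block 1 gene of the whole array passed, and with the sex term or with centred arrays 2 did. The part of B cells in the Syk value was not tested.

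The transcription factors went both ways. Their median lay 0.67 above the control mean in DX2 1, 0.49 above it in DX2 3 and 0.19 below it in DX2 2. Of 12 measured, 8 were higher and 4 lower (median 0.54, and 0.40 without DX2 1). None passed, and 5 had an unadjusted p under 0.05 (limma), against 16.0% of all genes. For 3 the groups were apart in the higher direction and for 2 in the lower, against 10.7% and 11.2% of all genes. Zfpm1, the GATA1 cofactor FOG1, read 6.54, 7.14 and 6.87 in controls 1, 2 and 3 and 8.68, 7.55 and 8.92 in DX2 1, 2 and 3, a difference of 1.53 (SE 0.35, adjusted p = 0.108) without overlap. Gata1, which directs megakaryocytes and red cells, read 8.36, 6.49 and 8.08 in the DX2 spleens against 6.05, 7.04 and 6.97, Gfi1b read 8.35, 6.97 and 8.38 against 6.57, 7.14 and 7.29, and Nfe2, needed for platelet release, read 7.18, 5.12 and 6.54 against 4.55, 5.85 and 5.79. DX2 1 was the highest for 4 of the 12 and at least 1 above every other spleen for 0. Mef2c, which B cells use as well, differed by -1.03 (SE 0.25, adjusted p = 0.122), with the DX2 spleens below the controls. Fli1 differed by -0.52 (SE 0.14, limma, adjusted p = 0.150), again with the DX2 spleens below the controls. Runx1 differed by -0.23 and Meis1 by -0.086. The remaining factors were higher, Tal1 by 0.86, Etv6 by 0.68, Gata2 by 0.41 and Lmo2 by 0.28. For Etv6 and Gata2 the DX2 spleens lay above the controls.

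Erythroid markers were high in DX2 1 and DX2 3, as were Zfpm1, Gata1, Gfi1b and Nfe2. The mean of 16 measured erythroid transcripts (of 20 listed) was 6.34, 8.13 and 8.04 in controls 1, 2 and 3 and 9.67, 7.37 and 9.35 in DX2 1, 2 and 3, while the mean of the 7 megakaryocyte and platelet genes was 7.15, 7.80 and 7.73 in the controls and 9.34, 7.16 and 7.70 in the DX2 spleens. Both means were low in control 1 and high in DX2 1, and they parted in DX2 3, where the median erythroid transcript lay 1.85 above its control mean and the median of the 7 genes 0.07 above. DX2 1 was the highest spleen for 15 of the 16 erythroid transcripts, against 17.5% of all genes. Their median in DX2 1 lay 2.22 above the control mean, and that of the 7 genes 1.83 above. No erythroid marker stood at least 1 above every other spleen in DX2 1, where the comparison includes DX2 3. The part of red cell precursors in the values of shared genes such as Gata1 was not tested.

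Neutrophil markers moved with the 7 genes in DX2 1. Their mean over 19 transcripts was 6.62, 6.94 and 7.47 in controls 1, 2 and 3 and 8.65, 6.90 and 6.99 in DX2 1, 2 and 3, with DX2 1 the highest for 18 of 19 and at least 1 above every other spleen for 12. The mean of 10 mast cell and basophil transcripts was 5.09 in DX2 1 and between 4.14 and 4.51 elsewhere, with DX2 1 the highest for 8. The T cell mean over 11 transcripts was lowest in DX2 1, at 6.60 against 7.74 to 8.03 elsewhere. The B cell mean over 10 was lowest there too, at 7.91, with 8.27 and 8.68 in the other DX2 spleens and 9.70 to 10.11 in the controls. The mean of 10 stem and progenitor transcripts was 5.74, 5.75 and 5.77 in controls 1, 2 and 3 and 6.01, 5.95 and 6.06 in DX2 1, 2 and 3, so that every DX2 spleen lay above every control. Of these 10 transcripts 7 were higher and 3 lower, 0 passed, and 3 had an unadjusted p under 0.05 (limma), against 16.0% of all genes. Single transcripts had groups without overlap for 2, both higher, against 10.7% of all genes in that direction. Values relative to the other RNA of an extract move when a large cell type is scarce, and the part of fewer lymphocytes in the megakaryocyte values was not tested.

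**Figure D3:**
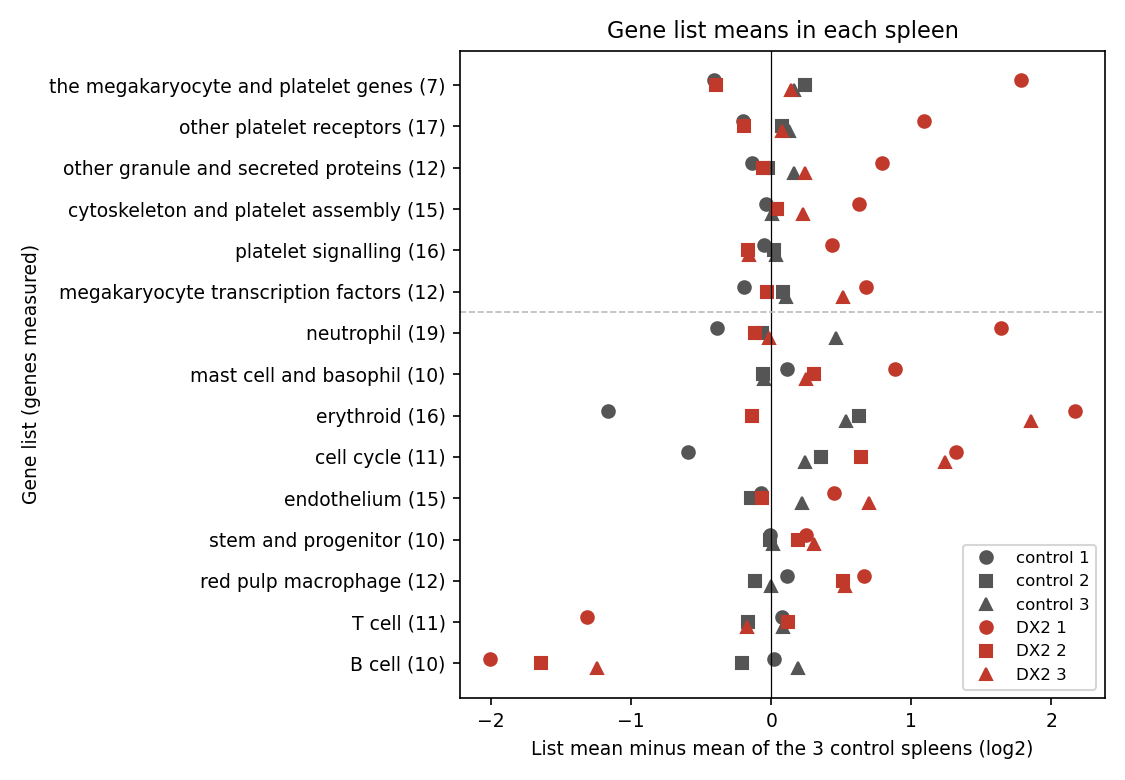
Mean log2 value of each gene list minus the mean of the 3 control spleens (x axis), by list with the number of genes measured (y axis), for each of the 6 spleens. DX2 1 stands far to the right for the megakaryocyte and platelet, receptor, granule and neutrophil lists, and to the left for T cells. DX2 1 and DX2 3 stand to the right together for erythroid transcripts. For cell cycle transcripts all 3 DX2 spleens lie to the right of all 3 controls.

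**Figure D4:**
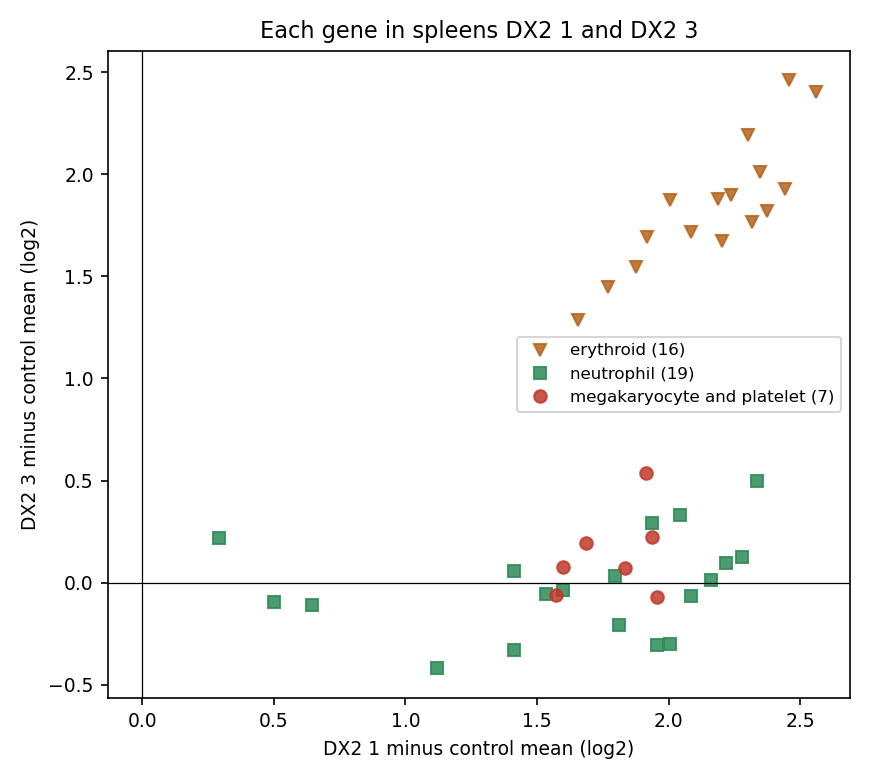
Each point is a gene of the megakaryocyte and platelet (7), neutrophil (19) or erythroid (16) list, placed by its log2 value in DX2 1 (x axis) and DX2 3 (y axis), each minus the gene's mean over the 3 controls, which both axes share. The megakaryocyte, platelet and neutrophil genes lie near 0 on the y axis, and the erythroid genes are high on both.

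Over the whole array, 97 of 22180 genes stood at least 1 above every other spleen in DX2 1, and they were drawn from several lists. The 97 included all 7 measured megakaryocyte and platelet genes, 16 of the other lineage genes, 12 of the neutrophil list and 3 of the mast cell and basophil list, with 59 in no list. The neutrophil and myeloid genes Chil3, Fcnb, Mpo and Ctsg were among them, as was Slc6a4, the serotonin transporter through which platelets load their dense granules, with a lead of 1.84. The same threshold was passed by 81 genes in DX2 2, 9 in DX2 3 and 0 to 20 in each control spleen.

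The genes most like the 7 were found by the same distance, between a gene's centred values over the 6 spleens and the mean profile of the 7. Alox12 was the nearest at 0.05, followed by Trpc6, a calcium channel (0.13), Gp6, the collagen receptor of platelets (0.14), Slc6a4 (0.15) and Pde5a (0.15). Then came Selp, the adhesion molecule P-selectin (0.16), Serpinb2, an inhibitor of plasminogen activators (0.16), and Mmrn1 (0.16). Trpc6 read 7.75 in DX2 1 and 5.49 to 6.09 elsewhere, and Slc6a4 8.11 against 5.57 to 6.27. Of these 8 genes 5 were on the lineage lists and 3, Trpc6, Slc6a4 and Serpinb2, were not, and none passed between the groups (limma, adjusted p of 0.558 or more).

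**Figure D5:**
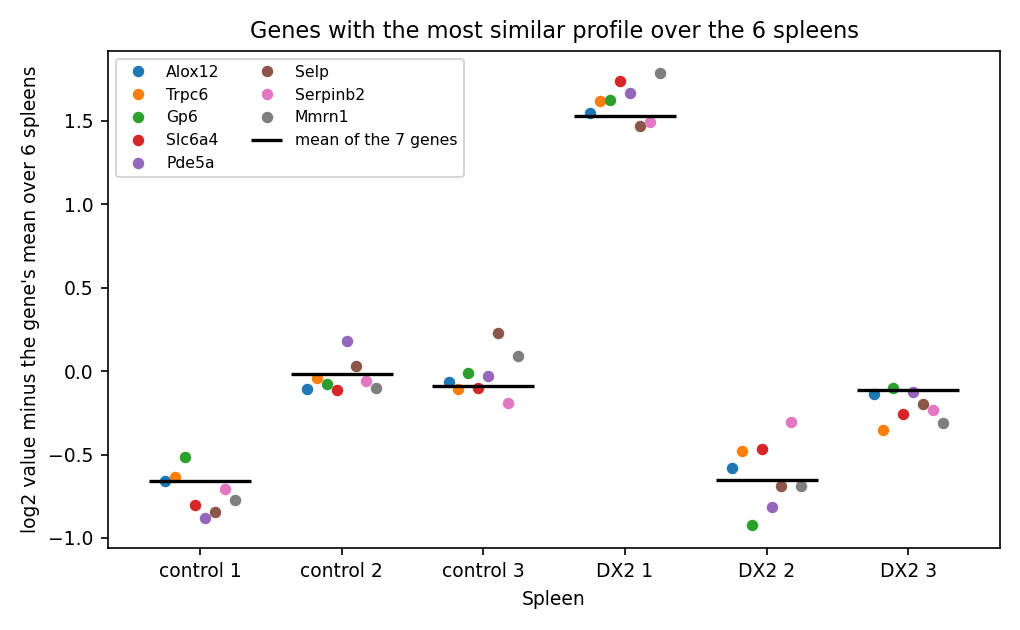
Log2 value minus the gene's own mean over the 6 spleens (y axis) in each spleen (x axis) for the 8 genes nearest to the mean profile of the 7 megakaryocyte and platelet genes, with that mean as a black bar. All 8 peak in DX2 1 and lie below their own mean in control 1 and DX2 2. They were chosen for nearness to the mean profile, so this shared shape follows from the choice.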

How the data were processed

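The 6 spleen samples were read from 1 table of log2 values that the authors deposited, made with RMA (background correction, normalization between arrays, summary of probes) per the submitters' processing notes. Its version and annotation are not stated in those notes, and the log2 scale was inferred from the range of values (0.771 to 13.3). RMA compresses large differences. Of 41345 probe sets, 23521 had 1 gene symbol by the platform annotation, 1814 several and 16010 none. For each of the 22180 genes the probe set of highest mean over the arrays was kept. Groups and replicate numbers came from the titles.

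DX2 minus control was fitted with limma 3.58.1 in R 4.3.3 (lmFit, eBayes, no covariate, no filter) over all genes, with Benjamini-Hochberg adjustment and a threshold of 0.05, after a check on simulated data. From each lineage list the 5 genes with the largest absolute difference were named, and the 8 genes nearest in profile. Genes named beyond these (Clu, Fli1, Runx1, Meis1, Tal1, Etv6, Gata2 and Lmo2, Cxcl5 and Cxcl1, Chil3, Fcnb, Mpo and Ctsg) were chosen after their values were seen. The 7 genes, the lists and the tests were chosen with earlier results of these data known. Alternatives were a replicate block, each array left out, a filter on the 40% dimmest genes, a mean-variance trend, array weights, a second quantile normalization, centred arrays, the mean over probe sets and a sex term. Adding the probe set shared by Gp1bb and Septin5 was chosen after seeing the data. The labels do not say whether replicate numbers pair the spleens, and the correlations of deviations between spleens of the same number were -0.32, -0.14 and 0.07.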

Additional observations from a re-analysis of the deposited data

How the results depend on the processing

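None of the 7 genes passed under any alternative (105 fits of a gene, lowest adjusted p = 0.193 by limma). Leaving out 1 array moved the number of the 7 that were higher between 1 and 7, their median difference between -0.12 and 0.94, and single differences between -0.44 and 0.94 (Pf4), -0.37 and 0.84 (Ppbp), -0.13 and 0.76 (Itga2b), -0.12 and 0.95 (Itgb3), -0.056 and 1.08 (Gp5), 0.31 and 1.23 (Gp9), -0.11 and 0.94 (Vwf). Leaving out DX2 1 gave the lowest value of each and leaving out DX2 2 the highest, and without control 1 Ppbp also turned (-0.0076). Of the other 63 fits of a gene, 62 kept their direction, and Ppbp turned with a sex term (-0.064). The number of genes passing in all, 70, was 1 with the replicate block, 125 with the 40% dimmest genes removed, 547 with array weights, 131 after a second quantile normalization, 2 with centred arrays, 2 with a sex term and 1 to 370 with 1 array left out. The labels do not say whether the replicate numbers pair the spleens, and the block changed no call among the 7 (median 0.49). The mean level of the 7 in control 1, DX2 2 and DX2 3 became 6.66, 6.49 and 7.22 as a median, still with DX2 1 the highest (9.25). The filter tests fewer genes and some fits had fewer spleens or degrees of freedom, but the cause of these shifts was not tested for any setting. The number of arrays limits every value, and a probe set's signal over background is unknown.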
